A study of Mus musculus with 28 samples.

Results

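The 7 mouse genes of the Fos and Jun family (*Fos*, *Fosb*, *Fosl1*, *Fosl2*, *Jun*, *Junb* and *Jund*) were taken by name from the 21938 protein-coding genes of the GENCODE vM21 annotation. No threshold on signal was used, but earlier results of these data were known when the family was chosen. Every H3K4me3 peak and H3K27me3 island that the deposited lists hold in these genes, at their promoters and within 100 kb on either side was read. The lists come from CUT&RUN (CnR), in which an antibody against a histone post-translational modification (hPTM) guides a nuclease to cut out the nucleosomes that carry it. CnR was applied to nuclei of A2a and D1 medium spiny neurons (MSNs), the principal neurons of the striatum, after INTACT, which pulls down nuclei with a tagged envelope protein. A2a nuclei came from Sun1-sfGFP;A2a-cre mice and D1 nuclei from Sun1-sfGFP;Drd1-cre mice, both on a C57BL/6J background, with the R26-CAG-LSL-Sun1-sfGFP allele, of both sexes and under no drug treatment. Their age is given as about 8 weeks in the methods and as 6 to 12 weeks elsewhere in the study. In either line the tagged nuclei are those of cells in which the Cre driver has been active. The lists do not show whether a mark sits on the same allele or in the same nucleus as another.

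Each of the 4 lists (2 cell types by 2 hPTMs) pools 2 replicates, 8 of the 28 samples of the series. No value therefore carries a replicate error, and no difference between A2a and D1 could be tested across mice. The D1 H3K27me3 samples have conflicting labels (a source name of A2a against a title and cell type of D1) and were taken as D1. The A2a lists hold more than the D1 lists: 22551 against 20080 H3K4me3 peaks, and 60191 against 45760 H3K27me3 islands with 22091634 against 7878685 reads. Library totals were not used here, so H3K4me3 peaks are given by their percentile in their own list (ranked by −log10 q, 100 being the strongest), and their fold enrichments and reads were not scaled between the cell types. The 6 known markers followed the labels in the percentile of the promoter H3K4me3 peak and in the reads of the promoter island. The island of the adenosine receptor gene *Adora2a* was found in D1 alone (4153 reads), and that of the dopamine receptor gene *Drd1* held 1958 reads in A2a and 86 in D1. By H3K4me3 fold enrichment *Drd2* (3.51 in A2a and 3.98 in D1), *Penk* (3.06 and 3.67) and *Tac1* (4.88 and 4.08) went against the labels. Of 4 oligodendrocyte markers 2 had a promoter H3K4me3 peak in each list (*Mbp* at the percentile of 88.1 in A2a and 80.7 in D1), as did 1 of 4 astrocyte markers in each and 1 of 4 microglial markers in A2a and 0 in D1, and the part of glial nuclei in the peaks described below was not tested.

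Fos and Jun proteins are basic leucine zipper factors that pair to form AP-1, which binds TGACTCA and related sites. Fos proteins need a partner of another family, such as Jun, while Jun proteins can also pair with each other. In neurons *Fos*, *Fosb* and *Junb* are immediate early genes, transcribed within minutes of synaptic input through SRF, which binds CArG boxes, and CREB, which binds the CRE. A truncated product of *Fosb* is known for accumulating in striatal neurons after repeated drug exposure, and *Jund* is transcribed more steadily. H3K4me3 marks the starts of genes that are active or ready for transcription, H3K27me3 is laid down by Polycomb repressive complex 2 over silent genes, and promoters with both are called bivalent.

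Printed here are the promoters of *Fos* and *Fosb*, which carry a CArG box, and that of *Jun*, whose peak ranked differently in A2a and D1. The centre of a peak downstream of *Fos* is printed as well. A link between the motifs in these sequences and the H3K4me3 peaks was not tested. They were read from the GRCm38 genome as provided by NCBI RefSeq, 5′ to 3′ on the strand named. The stretch shown for *Fos* runs from 320 to 21 bases upstream of the annotated transcription start site (TSS), and those of *Fosb* and *Jun* run from 300 to 1 bases upstream. Capitals mark matches, on either strand, to a CArG box, a CRE (TGACGTCA), the core of a CRE (TGACG), an AP-1 site (TGACTCA), the variant TGACATCA and a TATA box (TATAAA), while GC boxes (GGGCGG) were counted and not capitalised.
Fos promoter (chr12:85473570-85473869, plus strand): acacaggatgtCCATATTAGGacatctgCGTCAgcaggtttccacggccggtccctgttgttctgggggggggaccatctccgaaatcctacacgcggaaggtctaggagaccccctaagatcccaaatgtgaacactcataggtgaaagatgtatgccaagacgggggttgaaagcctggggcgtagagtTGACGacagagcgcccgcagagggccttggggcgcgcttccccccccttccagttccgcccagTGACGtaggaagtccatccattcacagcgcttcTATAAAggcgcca
Fosb promoter (chr7:19310052-19310351, minus strand): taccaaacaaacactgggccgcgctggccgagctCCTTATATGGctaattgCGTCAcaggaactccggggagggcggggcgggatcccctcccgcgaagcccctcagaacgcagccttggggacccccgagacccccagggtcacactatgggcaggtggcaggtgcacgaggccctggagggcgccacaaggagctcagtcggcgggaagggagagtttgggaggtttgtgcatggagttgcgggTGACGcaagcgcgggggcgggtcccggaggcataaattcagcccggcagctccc
Jun promoter (chr4:95052223-95052522, minus strand): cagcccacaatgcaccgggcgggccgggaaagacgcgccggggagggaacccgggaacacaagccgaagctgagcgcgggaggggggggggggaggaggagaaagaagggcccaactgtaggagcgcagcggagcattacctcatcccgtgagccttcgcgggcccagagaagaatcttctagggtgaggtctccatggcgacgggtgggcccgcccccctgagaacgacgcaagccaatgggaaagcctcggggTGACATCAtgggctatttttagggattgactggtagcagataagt
Fos downstream peak (chr12:85485989-85486288, plus strand): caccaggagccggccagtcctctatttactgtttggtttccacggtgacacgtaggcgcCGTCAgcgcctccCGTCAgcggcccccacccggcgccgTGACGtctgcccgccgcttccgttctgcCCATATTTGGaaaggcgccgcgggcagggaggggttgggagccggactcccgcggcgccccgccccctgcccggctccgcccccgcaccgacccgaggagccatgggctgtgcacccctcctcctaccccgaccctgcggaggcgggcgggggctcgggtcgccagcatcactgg

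In the 350 bases upstream of the TSS, all 7 members held the CRE core TGACG on at least 1 strand, against 22.9% of the 21938 protein-coding promoters and 30.9% of those with an A2a H3K4me3 peak. The count depends on the window. *Fosl1* held its only core from 349 to 345 bases upstream. Those of *Jun* lay from 327 to 323 and from 303 to 299 bases upstream, so that the 300 bases printed for *Jun* hold none. For *Fosl2* and *Jund* the GENCODE start used here lies 671 bp and 1210 bp from that of RefSeq. A full CRE, which contains the core on both strands, was found in *Jund* alone, from 214 to 207 bases upstream, against 2.09% of promoters. *Fos* had the CArG box CCATATTAGG from 309 to 300 bases upstream and *Fosb* had CCTTATATGG from 266 to 257 bases upstream. CArG boxes were present in 1.91% of promoters, and a CArG box together with a CRE core in 0.369% (81 genes). The variant TGACATCA, which was added to the search after the sequences had been read, lay from 45 to 38 bases upstream of *Jun* and in 3.35% of promoters. TATAAA was matched in 3 members, among them *Fos* and *Junb* (16.2% of promoters), and GGGCGG in 6 of 7 members (41.4%), the exception being *Junb*. No member held TGACTCA, which 5.31% of promoters did, and that says only that these letters are not in this window. The members' GC content was highest in *Fosl2*, at 71.4%, with a median of 63.4% against 52.3% over all promoters.

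All 7 members had an H3K4me3 peak in the promoter, taken from 2 kb upstream to 1 kb downstream of the TSS, in both A2a and D1 nuclei, and 0 of 7 had a promoter H3K27me3 island in either. Over all protein-coding genes a promoter H3K4me3 peak was listed for 58.2% in A2a and 55.7% in D1, and a promoter H3K27me3 island for 21.7% in A2a and 15.3% in D1. None of the members was therefore bivalent in these lists, a state listed for 2092 genes in A2a and 1221 in D1, and the genes with H3K4me3 alone numbered 10671 and 11009. The peaks ranked near the middle of those at promoters: the median percentile of the members was 72.8 in A2a and 74.95 in D1, against 72.1 and 71.0 over all protein-coding genes with a promoter peak.

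The Fos genes encode the partners that cannot pair with themselves. *Fos* (chr12:85473890-85477273, plus strand, 4 exons) had a promoter peak at the percentile of 72.8 in A2a and 69.0 in D1, and was enriched over local background 5.96-fold in A2a and 6.82-fold in D1. The A2a peak was a single block from 0.519 kb upstream to 1.805 kb downstream of the TSS, over 53.4% of the gene. In D1 the same stretch was listed as 2 peaks, a main one from 0.316 kb upstream to 1.19 kb downstream and a second one of 238 bp inside the gene, ending 1.75 kb downstream and enriched 2.41-fold.

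*Fosb* (chr7:19302696-19310051, minus strand, 4 exons) ranked slightly above *Fos*, at the percentile of 76.0 in A2a and 74.95 in D1. It showed the same split: 1 peak of 2790 bp in A2a, enriched 6.36-fold, and 2 peaks of 982 bp and 1259 bp in D1, enriched 6.65-fold and 5.50-fold. The outer ends differed little, 0.583 kb upstream and 2.21 kb downstream of the TSS in A2a against 0.59 kb and 2.095 kb in D1. The length of the strongest *Fosb* peak in D1 was 0.352 times that in A2a, a ratio that 1.33% of the 12194 genes with a promoter peak in both lists equalled or undercut, and it records the split rather than a shorter span.

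*Fosl2* (chr5:32135801-32157842, plus strand, 4 exons), which encodes Fra-2, had a long peak of low enrichment, 2724 bp and 4.03-fold in A2a and 2378 bp and 4.14-fold in D1. Its percentile was 72.0 in A2a and 65.7 in D1. A weaker peak, 1.67-fold in A2a and 1.73-fold in D1, lay at the upstream edge of the promoter window. It also reached into the promoter window of *Gm10463*.

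*Fosl1* (chr19:5447547-5455946, plus strand, 4 exons), which encodes Fra-1, was the member with the lowest rank in both lists, at the percentile of 54.7 in A2a and 48.1 in D1. Its peak was short and steep. It measured 812 bp in A2a and 374 bp in D1, and its fold enrichment of 13.6 in A2a exceeded that of 98.4% of genes with a promoter peak, while that of 9.86 in D1 exceeded 84.8%. The 2603 bp A2a peak and the 2224 bp D1 peak over the last part of the gene lie at the promoter of the neighbouring gene *Ccdc85b* and are not counted as its own.

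The Jun genes, each of 1 exon, encode the partners of the Fos proteins in AP-1. *Jund* (chr8:70698949-70700616, plus strand) ranked highest of the family in both lists, at the percentile of 89.3 in A2a and 97.0 in D1, with fold enrichments of 5.85 and 6.47. Its peak covered 100% of the 1668 bp gene in both lists. *Junb* (chr8:84974484-84978718, minus strand) came next in A2a, at 79.3, and stood behind *Jun* in D1, at 76.5, with fold enrichments of 4.76 and 4.54. The *Junb* peak began only 0.136 kb upstream of the TSS in A2a and 0.157 kb in D1 and covered 60.4% and 55.6% of the gene.

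*Jun* (chr4:95049034-95052222, minus strand) was the member whose rank differed most between the lists. It stood at the percentile of 69.6 in A2a, sixth of 7, and at 86.1 in D1, second of 7, and its fold enrichment was 3.65 in A2a and 4.49 in D1. The rise of 16.5 points was equalled or exceeded by 3.88% of the 12194 genes, and a shift as large in either direction was seen in 14.5%. *Jun* is singled out here as the member that moved most, so that these shares are a description and no test. Of the same genes, 5.17% had a fold ratio of 1.23 or more. The *Jun* peak measured 3315 bp in A2a and 3142 bp in D1, the longest of the family in either list. It also reached into the promoter windows of the noncoding *Junos* and *Gm12703*. A short A2a peak near the 3′ end of *Jun*, 279 bp long and enriched 1.45-fold, had no counterpart in D1. It stood at the percentile of only 3.56 and also lay in the promoter window of *Gm12703*.

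**Figure D1:**
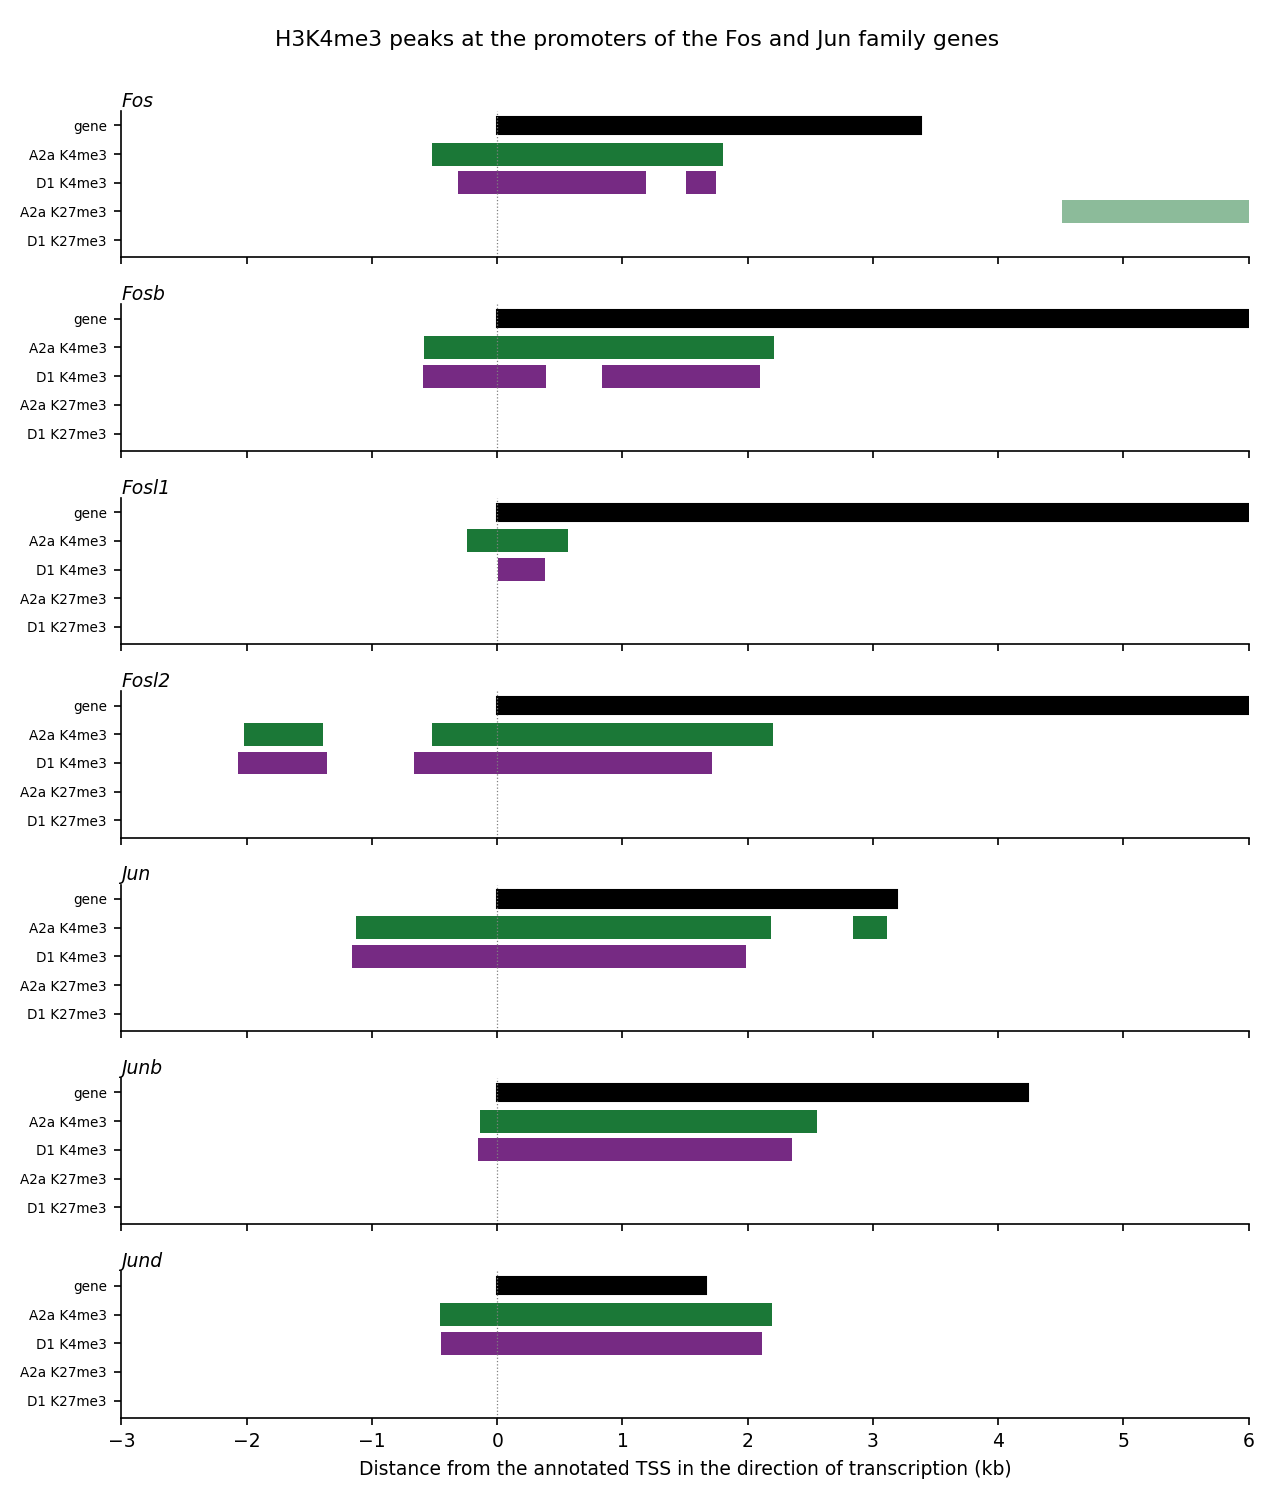
H3K4me3 peaks (solid) and H3K27me3 islands (pale) of A2a (green) and D1 (purple) nuclei from 3 kb upstream to 6 kb downstream of the TSS of each gene, with the gene body in black. All 7 promoters carry H3K4me3 in both lists, D1 splits the single A2a block at *Fos* and *Fosb*, and the H3K27me3 rows hold only the island 4.51 kb downstream of the *Fos* TSS in A2a.

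Read as ranks, the order in A2a was *Jund*, *Junb*, *Fosb*, *Fos*, *Fosl2*, *Jun* and *Fosl1*, and in D1 *Jund*, *Jun*, *Junb*, *Fosb*, *Fos*, *Fosl2* and *Fosl1*. With *Jun* left out the order of the other 6 was the same in both. *Jund* moved up by 7.70 points in D1, while *Fosb*, *Junb*, *Fos*, *Fosl2* and *Fosl1* moved down by 1.02 to 6.55 points. Over all 12194 genes the median shift from A2a to D1 was −3.84 points, with 10th and 90th percentiles of −16.8 and 10.2. *Jun* is thus the 1 member outside that central range. Pooled replicates give no measure of how far such ranks move between mice.

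**Figure D2:**
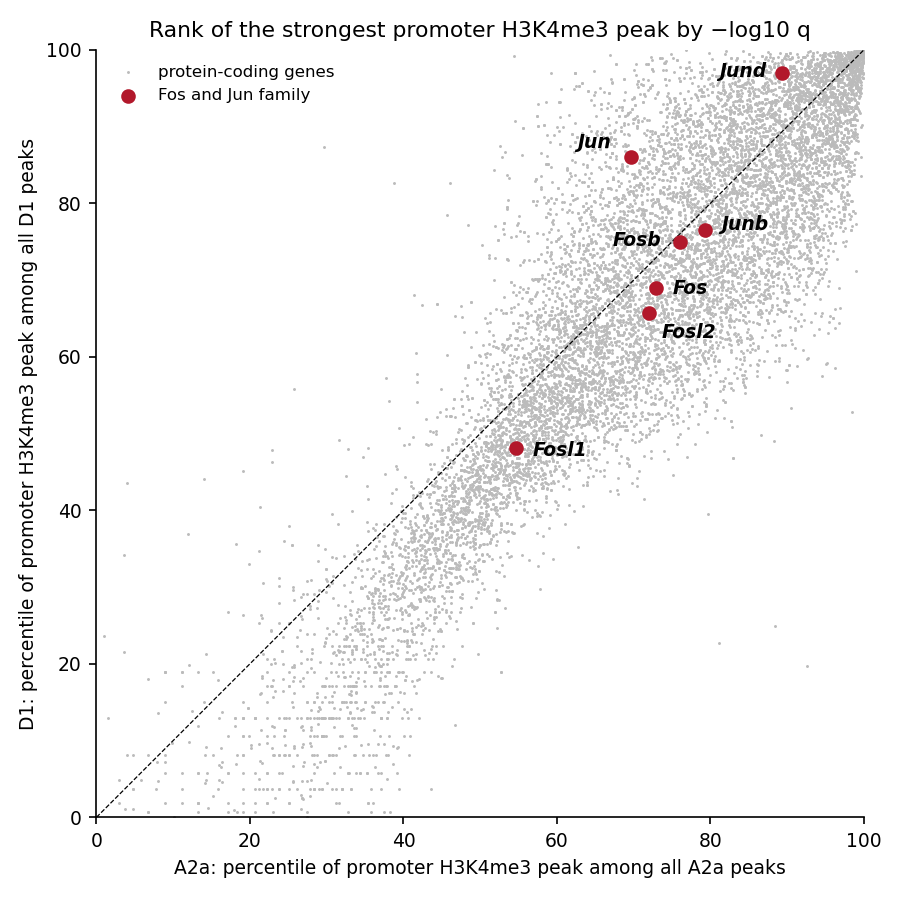
Percentile of the strongest promoter H3K4me3 peak in the A2a list (x axis) and the D1 list (y axis), ranked by −log10 q within each list, for 12194 protein-coding genes (grey) and the 7 members (red). *Jun* lies well above the dashed line of equal rank, *Jund* lies above it near the top, and *Fosl1* is the lowest member in both lists.

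The rank by −log10 q and the rank by fold enrichment gave different pictures of the family. By fold enrichment the median percentile of the members was 39.4 in A2a and 52.0 in D1, and 6 of 7 members lay below the median of promoter peaks, which was 7.65 in A2a and 7.53 in D1. Those 6 were all members but *Fosl1*. The same 6 had A2a peaks of 2325 bp to 3315 bp, against a median of 1622 bp over protein-coding genes with a promoter peak. In D1, 4 of them (*Fosl2*, *Jun*, *Junb* and *Jund*) had peaks of 2378 bp to 3142 bp against a median of 1517 bp, and *Fos* and *Fosb* fell to 1505 bp and 982 bp where the block was split. Among all protein-coding genes with a promoter peak, the longest 10% of peaks (1277 in A2a and 1223 in D1) were enriched 4.96-fold in A2a and 5.05-fold in D1 at the median, against 7.94 and 7.80 for the others. In the plot of length against fold enrichment *Jun* lies among the longest, and *Fosl1* lies at the short and steep edge of the plot.

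**Figure D3:**
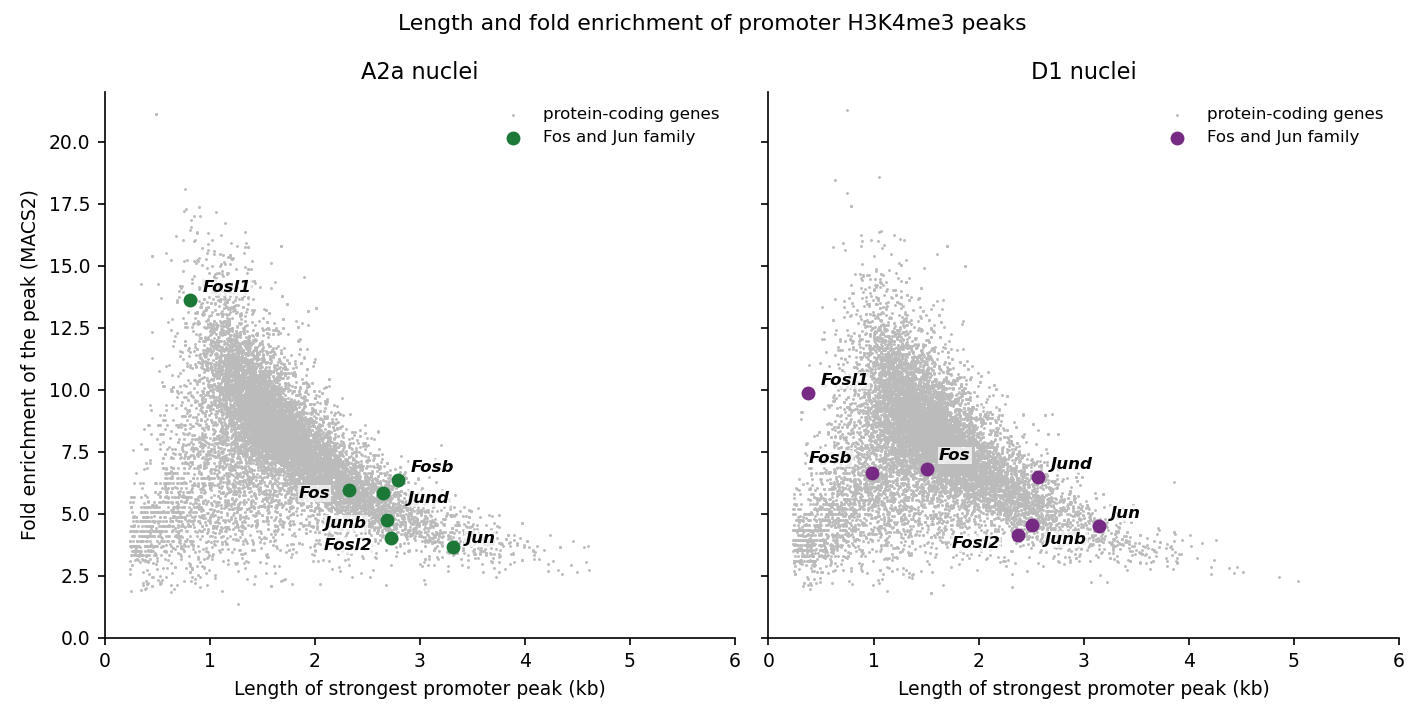
Length (x axis, kb) and MACS2 fold enrichment (y axis) of the strongest promoter H3K4me3 peak of protein-coding genes (grey) and of the 7 members (coloured), in A2a (left) and D1 (right) nuclei, with 3 genes outside the axes in A2a and 0 in D1. *Fosl1* is short and steep at 13.6 in A2a and 9.86 in D1, and *Jun* is long and low at 3.65 and 4.49.

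H3K27me3 came close to some members without entering their promoters. Within 100 kb of the gene, an island was listed for 5 of 7 members in A2a (*Fos*, *Fosb*, *Jun*, *Junb* and *Jund*) and for 4 of 7 in D1 (the same without *Fosb*), against 77.6% of protein-coding genes in A2a and 66.5% in D1. Islands covered 23.6% of the *Jun* window in A2a and 17.6% in D1, 13.3% and 8.56% for *Fos*, and 11.7% and 6.56% for *Junb*. The median over protein-coding genes was 4.99% in A2a and 1.94% in D1, so that these 3 members exceeded it in both lists.

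*Jund* was above the median in A2a, with 8.33%, and below it in D1, with 1.49%. *Fosb* had 1.35% in A2a from a single island of 2.8 kb and 174 reads at the promoters of *Ppm1n* and *Rtn2*, and no island in D1. *Fosl1* and *Fosl2* had no island within 100 kb in either list. For *Fosl1* the nearest one lay just beyond, 108.05 kb from the promoter in A2a and 109.65 kb in D1.

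**Figure D4:**
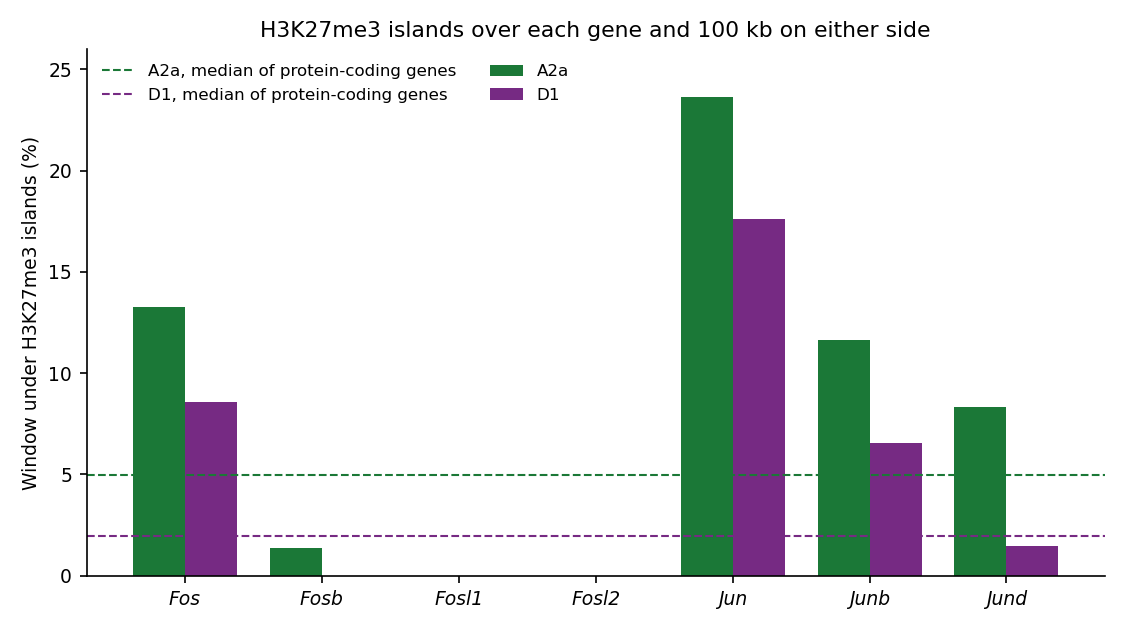
Share of the window of each gene plus 100 kb on either side that lies under H3K27me3 islands (y axis, percent) in A2a (green) and D1 (purple) nuclei, with dashed lines at the medians over protein-coding genes of 4.99% in A2a and 1.94% in D1. *Jun*, *Fos* and *Junb* exceed the median in both lists, and *Fosl1* and *Fosl2* have no bar.

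*Fos* was the member with H3K27me3 closest to its promoter. The nearest island ended 2.29 kb upstream of the promoter window in A2a, with 134 reads (95% Poisson interval 112 to 159), and 2.89 kb upstream in D1, with 88 reads (70.6 to 108). A2a alone had an island behind the gene, 3.0 kb long with 169 reads (144 to 196), which began 1.13 kb past the annotated end. The H3K4me3 block of *Fos* in A2a thus lay between islands on both sides, and in D1 it had one upstream only. These intervals cover counting error and not the spread between mice.

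*Jun* had the most islands, 10 in A2a and 12 in D1. Upstream of it A2a had an island of 11.2 kb with 832 reads, from 19.2 kb to 30.4 kb upstream of the TSS, where D1 had 4 islands of 1.8 kb to 3.2 kb with 89 to 175 reads. An A2a island of 11.0 kb with 708 reads further upstream was matched by 2 D1 islands of 1.8 kb each. The island nearest to the *Jun* promoter was 17.2 kb away in A2a and 17.0 kb in D1. For *Junb* the largest A2a island, 10.2 kb with 832 reads, covered the promoter of *Rtbdn*, where D1 had 4 islands of 1.4 kb to 2.0 kb, and a further one lay at the promoter of *Mast1* in both lists (415 reads in A2a and 144 in D1).

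The islands around the members held more reads per kb in A2a than in D1, as did the lists as a whole. Mean reads per kb of island were 65.6 in A2a and 37.1 in D1 for *Fos*, 62.9 and 41.4 for *Jun*, 79.9 and 44.6 for *Junb*, and 66.3 and 34.7 for *Jund*. The A2a to D1 ratios ran from 1.52 for *Jun* to 1.91 for *Jund*, and the ratio over the whole lists was 1.72. Of the 24 regions made by merging overlapping islands of both lists near the members, 14 (58.3%) held islands of both, 8 of A2a only and 2 of D1 only, while 42.8% of all such regions held both.

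**Figure D5:**
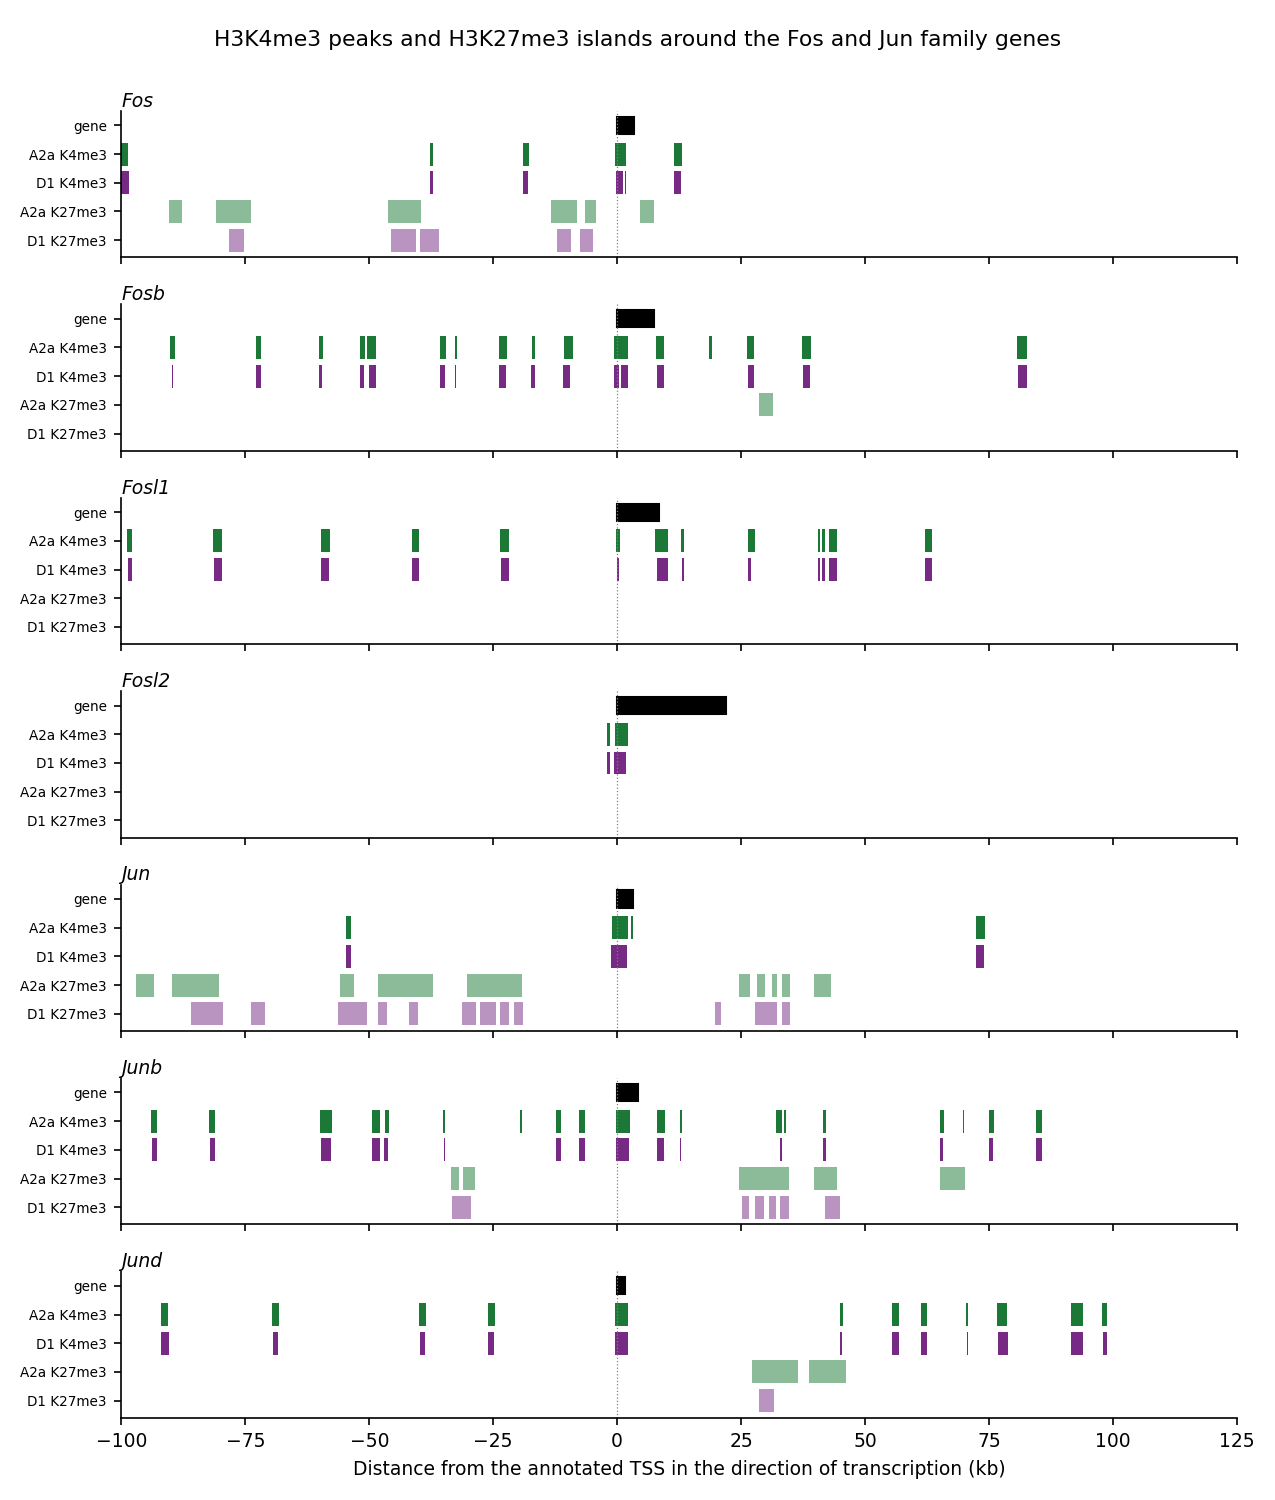
H3K4me3 peaks (solid) and H3K27me3 islands (pale) of A2a (green) and D1 (purple) nuclei around each gene, by distance from the TSS in the direction of transcription (x axis, kb), with the gene body in black and the plot ending at 100 kb upstream. *Jun* and *Fos* have few H3K4me3 peaks and many islands, and *Junb* has many of both. *Fosb*, *Fosl1* and *Jund* have many peaks and few or no islands, and *Fosl2* has only the peaks at its own promoter.

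The surroundings of the members were mostly shared in H3K4me3. Merging overlapping peaks gave 71 regions within 100 kb of a member, of which 66 (93.0%) held peaks of both lists, against 78.5% of the 23511 regions over the genome. The other 5 were A2a only (3 near *Junb*, 1 near *Jun* and 1 near *Fosb*), at percentiles of 3.56 to 13.2 in the A2a list, and 0 were D1 only. *Junb* had 19 regions around it, *Fosb* 16, *Fosl1* 13 and *Jund* 12, whereas *Fos* had 5, *Jun* 4 and *Fosl2* 2, both at its own promoter.

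Of the 5 regions at *Fos*, 2 held no annotated start within the promoter distances. The first lay from 18.99 kb to 17.8 kb upstream of the TSS, enriched 13.5-fold in A2a and 11.3-fold in D1, at percentiles of 74.1 and 60.0. The second lay from 11.4 kb to 13.1 kb downstream, with fold enrichments of 8.46 and 8.65 and percentiles of 74.8 and 73.2, so that it ranked with the *Fos* promoter itself. Enhancers that respond to neuronal activity are known to flank *Fos*, and whether either region acts as one cannot be read from these lists. The central 300 bases of the downstream peak, printed above, hold a CArG box and 3 CRE cores. A CArG box was found in 1.19% and at least 3 CRE cores in 0.622% of the central 300 bases of 22515 A2a peaks, and 1 such centre, this one, held both. Sequence outside the centres was not searched for this count. In the 350 bases upstream of the TSS, a wider window than the centres, *Fos* and *Fosb* also hold a CArG box and at least 3 CRE cores. These lie inside their A2a peaks but away from the centres. For *Fosb*, 1 of the cores lies from 317 to 313 bases upstream, outside the 300 bases printed. The pairing of a CArG box with 3 CRE cores was chosen after the sequence had been read.

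Among peaks within 100 kb that lie at the promoter of another gene, the 4 whose rank differed most between the lists were those of *Gm26802*, *Efemp2*, *Vasp* and *Rtn2*, picked here after their values were seen. The peak at the promoter of the noncoding *Gm26802*, 0.516 kb past the 3′ end of *Fosb* in A2a, stood at the percentile of 54.0 in A2a and 91.5 in D1, with fold enrichments of 7.39 and 11.7. A rise as large was seen in 0.162% of 18553 overlapping pairs of peaks. At the promoter of *Efemp2*, 26.4 kb downstream of the *Fosl1* TSS, the percentile was 46.8 in A2a and 11.98 in D1, a fall matched by 0.102% of pairs. On the far side of *Fosb* from its own promoter, the promoter peaks of *Vasp* and *Rtn2* ranked lower in D1 (57.3 and 59.0) than in A2a (83.4 and 84.1), and *Rtn2* is the gene at which A2a had the single island near *Fosb*. A pair of peaks at no annotated promoter differed about as much, one upstream of *Fosb* (chr7:19399348-19400302) that stood at the percentile of 33.3 in A2a and 5.81 in D1, and one downstream of *Jund* (chr8:70743823-70744442) that stood at 31.2 and 5.81.

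Of 15 other basic leucine zipper genes whose products can pair with AP-1 subunits, 12 had a promoter H3K4me3 peak in each list, while a promoter H3K27me3 island was listed for 7 in A2a and 4 in D1. Over all protein-coding genes the shares were 58.2% in A2a and 55.7% in D1 for a peak, and 21.7% and 15.3% for an island. *Atf3*, a stress-induced factor, and *Batf*, known from lymphocytes, had an island and no H3K4me3 peak in both lists, with 542 and 566 reads in A2a and 73 and 103 in D1. *Nrl*, a photoreceptor factor, likewise had no peak and had an island of 409 reads in A2a only. *Maf* carried both marks in both lists, with an island of 4898 reads in A2a and 708 in D1. *Mafa* had H3K4me3 peaks in both lists and an island, of 711 reads, in A2a only.

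Of 19 genes that act upstream of the family (SRF and its partners, CREB and its coactivators, MAP kinases and MEF2 factors), 17 had a promoter H3K4me3 peak in each list and 1, *Elk3*, had a promoter island in each, with 447 reads in A2a and 145 in D1. The shares over all protein-coding genes were again 58.2% in A2a and 55.7% in D1 for a peak, and 21.7% and 15.3% for an island. The 17 had a median percentile of 66.3 in A2a and 71.7 in D1, and ran from 33.1 to 91.6 in A2a and from 15.9 to 95.5 in D1. No promoter peak was listed for *Rps6ka5*, a kinase that phosphorylates CREB and histone H3, or for *Mef2c*, each at the single start taken for the gene.

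The genes most like each member in these 4 lists were found by the distance over 4 values, the percentile of the promoter peak and that of the promoter length under H3K4me3 in A2a and in D1, among 10413 protein-coding genes with promoter peaks and no promoter island in both. The nearest were *Tufm* for *Fos* (distance 2.35 percentile points), *4931406C07Rik* for *Fosb* (6.09), *Ascl4* for *Fosl1* (2.38), *Acvr1* for *Fosl2* (1.88), *Zfp646* for *Jun* (2.59), *Sesn2* for *Junb* (3.08) and *Guf1* for *Jund* (1.86). *Fosb*, with its split peak in D1, was the member farthest from its nearest gene.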

How the data were processed

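CnR was done on INTACT-purified A2a and D1 nuclei, and 4 deposited lists, each a pool of 2 replicates per the labels, were read. The authors aligned to mm10 (GRCm38) with bowtie2 (version 2.1.0) and kept deduplicated pairs (Picard) of mapping quality 20 or more with inserts between 150 and 500 bp. For H3K4me3 (Abcam antibody) the authors ran MACS2 at q 0.01, and columns used from the deposited peaks are the fold enrichment, a ratio to local background, and the −log10 q-value. For H3K27me3 (Active Motif antibody) the authors ran SICER with an unnamed control (200 bp windows, 600 bp gaps, false discovery rate 0.01), and the deposited column is an unnormalized count of reads per island. Not analysed here were 20 further samples (N2a cells, controls with IgG or without antibody, and antibodies of other makers) and the signal tracks.

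Genes came from GENCODE vM21, with the TSS at the annotated 5′ end. A peak or island was assigned where it overlapped a window by at least 1 bp, and coordinates count from 1. The strongest promoter peak was that with the highest −log10 q, and read counts have exact Poisson intervals at the 95% level. The depth of each library is unknown from the lists. No test between cell types was possible on pooled lists. The intervals and overlaps were tested on simulated data.

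The members and the gene lists were chosen with earlier results of these data known. All 7 members are named. A gene within 100 kb is named where its promoter holds a peak or island described, and a partner or upstream gene where its promoter has an island or no H3K4me3 peak in either list, at most 6 a list by island reads, except 1 partner gene whose result is not reported here. The neighbours with the largest rank differences were named after their values were seen, and the likeness measure is that given with its values. The RefSeq promoter table of GRCm38.p6 holds 6 of the 7 members, whose starts there lie 0 to 1210 bp from those of GENCODE. Python 3.11.15 was used with pandas 2.3.3, numpy 2.4.6, scipy 1.17.1 and matplotlib 3.10.9, and samtools 1.23.1 read the genome.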

Additional observations from a re-analysis of the deposited data

How the results depend on the processing

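The 9 results were recomputed under 40 alternatives of the promoter window, the TSS, the thresholds, the minimum overlap, the distance and the length of the lists, and 36 of these values stayed within 1.5 times the count reported, or within the 95% binomial interval of a percentile. Both limits are rules of sorting. The interval takes the number of peaks in the list and not the 7 members, so it measures no spread of their median. With 5 kb on each side of the TSS, 1 member (*Fos*) had an H3K27me3 island in A2a and 1 (*Fos*) in D1, in place of 0, since its nearest islands lie just outside the promoter. With fold enrichment in place of −log10 q, the median percentile of the members was 39.4 in A2a and 52.0 in D1, in place of 72.8 and 74.95. All 7 promoter H3K4me3 peaks were found under each of the 6 alternatives tried in A2a and the 5 in D1, which included a −log10 q of at least 5. With 200 kb on each side, 6 members had an island nearby in A2a and 6 in D1, in place of 5 and 4, which the limit of 1.5 still counts as unchanged. Between 62 of 69 and 65 of 68 regions near the members were shared under 2 other choices of peaks, and a D1 peak covered at least 50% of 62 of 71 A2a peaks.

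No paired analysis was possible because each list pools both replicates, and no replicate was left out for the same reason. The D1 islands hold fewer reads in all than the A2a islands, and an island missing from a list does not show that H3K27me3 is absent.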

Other observations

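The annotated start of *Jund* differs between annotations. RefSeq places it 1210 bp upstream of the GENCODE start used here, 755 bp outside the A2a H3K4me3 peak and 757 bp outside the D1 peak, whereas the GENCODE start lies inside both. For *Fosl2* the starts lie 671 bp apart and both fall under the peak, and for *Fos* and *Jun* they coincide.

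Near *Fos* the marks met in D1 at the promoter of the noncoding *Gm40477*, 37.8 kb upstream. Its H3K4me3 peak stood at the percentile of 19.1 in A2a and 32.9 in D1, and in D1 it lay under an island of 3.8 kb with 92 reads (95% Poisson interval 74.2 to 113), which has no counterpart over that peak in A2a. Peaks and islands also overlapped near other members. In both lists this was so at the promoters of *Mast1* and *Rtbdn* near *Junb*. It was also so at a peak from 54.7 kb to 53.8 kb upstream of the *Jun* TSS in A2a and at its D1 counterpart. Whether the marks share nuclei or alleles at any of these places was not tested.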
